A study of Rattus norvegicus with 21 samples.

Results

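An empty-vector line of INS-1 cells was set against its untransfected counterpart before any treatment. INS-1 is an established rat insulinoma line that makes insulin. The comparison used 6 of the 21 arrays of the study: 3 of pcDNA cells at 0 h and 3 of INS1 cells at 0 h, over 31042 probe sets of a rat Affymetrix expression array, which left out 95 array controls. The pcDNA cells were INS-1 cells stably transfected with an empty control plasmid. The INS1 cells carried no plasmid. Both were grown in 12-well plates for 3 days and received no cytokine. A further line, pCTSH#1, is a clone stably transfected with a plasmid encoding cathepsin H (CTSH), a lysosomal cysteine protease; its 3 untreated arrays are given beside the others as values. The remaining 12 arrays held pcDNA and pCTSH#1 cells after 6 or 16 h of IL-1β at 150 pg/ml and IFNγ at 5 ng/ml, and no INS1 arrays with cytokines were analysed here. The labels do not say whether the pcDNA line is a clone or a pool, nor whether replicates are separate cultures, so the p-values refer to the spread among these arrays, which may be technical.

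Beta cells sense glucose through its uptake and metabolism. The resulting ATP closes potassium channels, the membrane depolarises, calcium enters, and insulin granules fuse with the membrane. A small set of transcription factors, among them Pdx1, Nkx6-1 and Neurod1, maintains insulin gene expression. Stable transfection selects cells that have integrated the plasmid, and a line grown from them may differ from its parent through the plasmid, the selection or drift in culture. An empty-vector line is the usual control for such changes, so its distance from the untransfected parent is of interest for every comparison that rests on it.

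The deposited values are log2 intensities, normalised by the authors so that the arrays share 1 scale. On the 9 untreated arrays the median lay between 4.95 and 5.08. The highest nonspecific control on each array, between 3.88 and 4.17, served as its background, and 61.4% to 71.0% of probe sets lay above it. The 13438 genes with a probe set of their own were each represented by the probe set with the highest mean. A limma model of all 7 groups, without a term for the replicate number, gave two-sided tests. The p-values were adjusted by Benjamini-Hochberg over 31042 probe sets, and an adjusted p under 0.05 counted as past the threshold. Differences are pcDNA minus INS1 on the log2 scale, with their standard errors after ±. The number of arrays limits the precision.

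The pcDNA arrays lay as close to the INS1 arrays as replicates of 1 line lay to each other. The standard deviation of the log2 difference between a pcDNA and an INS1 array, over all probe sets, ran from 0.227 to 0.264 in the 9 pairs, with a median of 0.246. Pairs of pcDNA replicates gave 0.227 to 0.245 (median 0.235), and pairs of INS1 replicates gave 0.257 to 0.266 (median 0.260). Replicates of 1 line never have the same replicate number, so the 6 pcDNA-INS1 pairs of other number are the like comparison. They ran from 0.238 to 0.264, with a median of 0.249. Pairs of pCTSH#1 with INS1 arrays lay at 0.258 to 0.297, and pairs of pCTSH#1 with pcDNA arrays at 0.242 to 0.281. The pairs share arrays, so these distances are a description without a test.

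**Figure D1:**
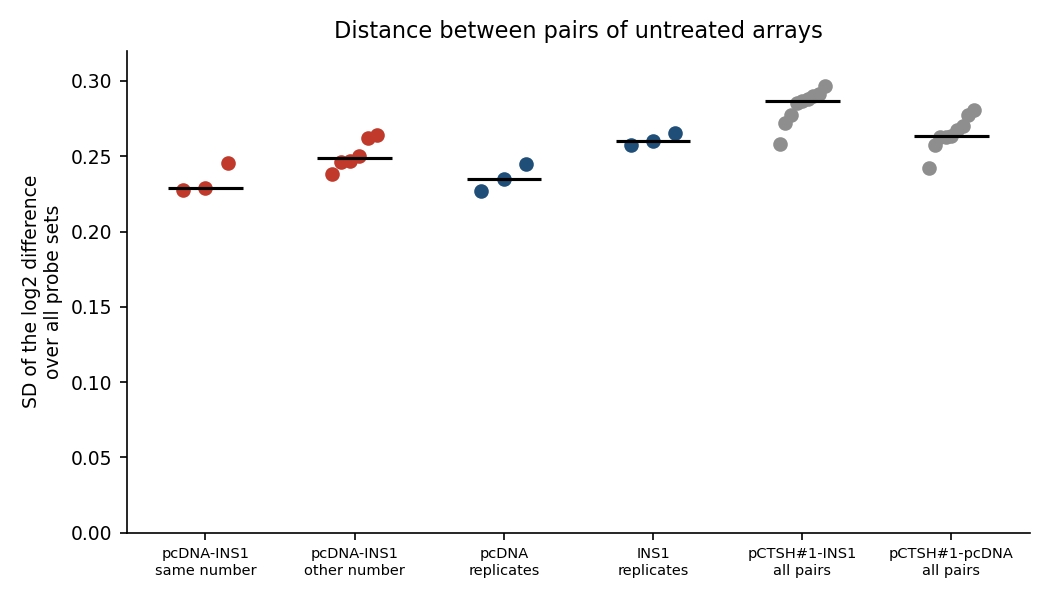
Distance between pairs of untreated arrays, as the standard deviation of the log2 difference over 31042 probe sets (vertical axis); each dot is 1 pair and each line the median of its column. The pcDNA–INS1 pairs, split by equal or other replicate number, lie between 0.227 and 0.264 and the replicate pairs of these lines between 0.227 and 0.266.

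Of 31042 probe sets, 3 differed between the lines past the threshold (0.00966%), 1 higher (0.00322%) and 2 lower (0.00644%) in pcDNA cells. No gene of the 13438 did (0%), and the smallest adjusted p of a gene was 0.0941. At an unadjusted p under 0.05 there were 1542 probe sets (4.97%), of which 887 were higher (2.86%) and 655 lower (2.11%) in pcDNA cells. For genes the count was 595 (4.43%), with 376 higher (2.8%) and 219 lower (1.63%). The balance of directions depended on the scaling: of these probe sets 57.5% were higher in pcDNA cells as deposited, 49.5% after cyclic loess and 38.9% with arrays centred on their medians, and of the genes 63.2%, 54.3% and 43.8%. The 3 arrays of each line did not overlap for 2797 probe sets (9.01%), 1613 higher (5.2%) and 1184 lower (3.81%) in pcDNA cells, and for 1203 genes (8.95%), 759 higher (5.65%) and 444 lower (3.3%). The pCTSH#1 line, set against the same INS1 arrays in the same model, differed at 797 probe sets (2.57%).

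The differences of most genes were small. Each 95% interval refers to a single gene, without correction for the number of genes. The standard errors come from the unpaired fit of all 7 groups and from replicates that may be technical. Genes leave out the probe sets with no symbol or several, among them all those past the threshold. The intervals therefore describe single genes and set no limit on what the arrays could have missed. The median difference of a gene was 0.01, with quartiles of -0.06 and 0.08. Only 29 genes differed by more than 0.5 and only 1, Gcg, by more than 1. The median standard error was 0.11. The 95% interval lay within 2-fold in either direction for 13429 genes (99.9%) and within 1.5-fold for 12747 (94.9%). Among the 9414 genes above background on all 6 arrays the corresponding counts were 9407 and 8930. Of all 31042 probe sets they were 30969 (99.8%) and 28753 (92.6%). Below background a difference in RNA is compressed, so the intervals of the dimmer genes refer to the signal and not the RNA.

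**Figure D2:**
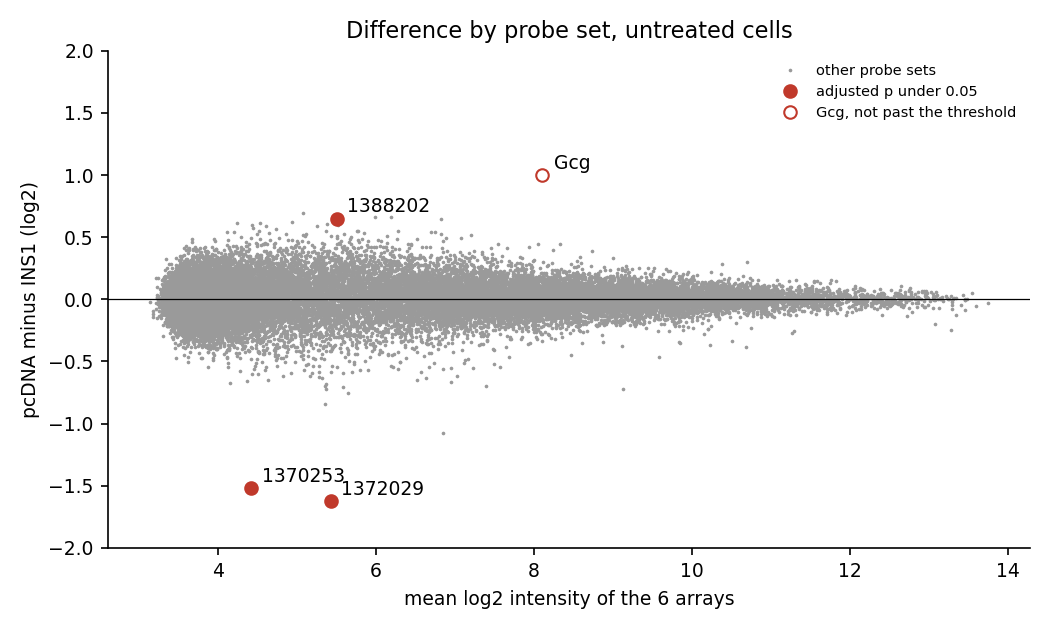
Difference in log2 intensity, pcDNA minus INS1, against the mean log2 intensity of the 6 arrays, with 1 dot per probe set. Filled circles mark the 3 probe sets past the threshold, at fitted differences of 0.65, -1.52 and -1.63; the -1.52 is fitted to pcDNA values at background and is no size. The open circle marks Gcg at 1.00, whose adjusted p was 0.0941.

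The probe set with the smallest p, 1372029_PM_at, was lower in pcDNA cells. Its log2 intensities were 4.81, 4.64 and 4.39 in pcDNA cells, against 6.19, 6.56 and 5.97 in INS1 cells. The groups did not overlap, and all 6 values lay above background. The difference was -1.63 ± 0.15 (adjusted p = 5.29e-05), a level in INS1 cells 3.09-fold that in pcDNA cells. A fit of the 6 arrays alone gave the same difference with an adjusted p of 0.181. In pCTSH#1 cells the probe set lay at background, at 3.52, 3.46 and 3.56, so the level in INS1 cells was at least 4.50-fold higher than there, set against the array background. The mean in pcDNA cells was 4.21 after 6 h and 4.22 after 16 h of cytokines, with 1 of the 3 arrays at 16 h at background. The annotation pairs this probe set with 2 gene symbols, so no gene is named.

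The probe set 1370253_PM_at was lower in pcDNA cells as well and is also paired with 2 symbols. It lay at background on all pcDNA arrays, at 3.64, 3.66 and 3.69, against 4.60, 5.81 and 5.14 in INS1 cells. The INS1 level was at least 2.20-fold higher than the background of the pcDNA arrays (adjusted p = 0.00154). The untreated pCTSH#1 values were 3.38, 3.39 and 3.44, also at background, and the bound there was at least 2.16-fold higher in INS1 cells. The INS1 replicates spread widely, with an SD of 0.60 (n = 3), against 0.02 in pcDNA cells (n = 3). In a fit of the 9 untreated arrays alone the adjusted p was 0.277, and in a fit of the 6 arrays it was 1.00.

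The probe set higher in pcDNA cells, 1388202_PM_at, read 5.77, 5.76 and 5.95 in pcDNA cells, against 5.40, 4.89 and 5.26 in INS1 cells. The difference was 0.65 ± 0.10 (adjusted p = 0.0367). Untreated pCTSH#1 cells gave 5.67, 5.64 and 5.64, between the other lines in mean. The probe set is not listed in the annotation. With cytokines its mean was 9.34 after 6 h and 10.2 after 16 h in pcDNA cells, and 9.32 and 10.3 in pCTSH#1 cells. The untreated call was not stable: with the replicate number as a block the adjusted p was 0.0801, and without 1 array it ran from 0.00535 (without INS1 replicate 1) to 0.249 (without pcDNA replicate 3), passing the threshold only in the first of these 6 fits. For each of these 3 probe sets and for Gcg, an exact two-sided permutation test of 3 arrays against 3 gave p = 0.1, the smallest it can give.

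The gene with the largest difference was Gcg, which encodes proglucagon, the precursor of glucagon in alpha cells. Its log2 intensities were 8.79, 8.40 and 8.60 in pcDNA cells, against 7.74, 7.63 and 7.43 in INS1 cells. The groups did not overlap, and the difference was 1.00 ± 0.17 (95% interval 0.64 to 1.36), a level in pcDNA cells 2.00-fold that in INS1 cells. Its adjusted p of 0.0941 missed the threshold. Over the alternatives the adjusted p ran from 0.00676, with trend and robust settings of the variance model, to 0.887, with the replicate block in the 6 arrays alone. The pCTSH#1 arrays read 9.04, 8.73 and 8.86, all above the INS1 arrays. With cytokines the mean in pcDNA cells was 7.99 at 6 h and 6.26 at 16 h.

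**Figure D3:**
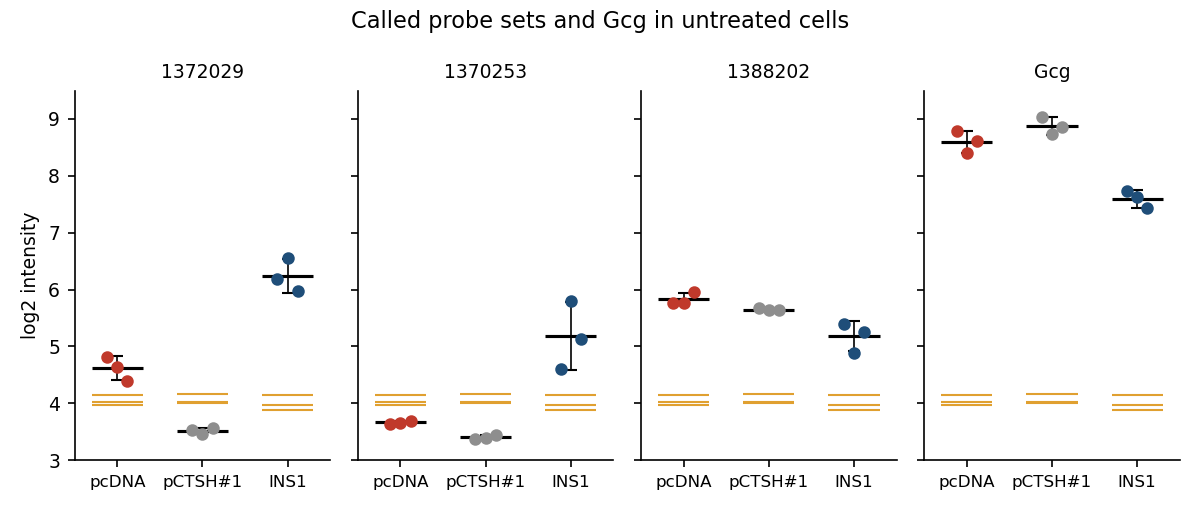
Log2 intensity of the 3 probe sets past the threshold and of Gcg on each untreated array (dots), with the group mean (black line), SD (bar, n = 3) and the background of each array (orange lines). The first panels show INS1 cells above pcDNA and pCTSH#1 cells for 1372029 and 1370253, and the last shows Gcg at 8.40 to 8.79 in pcDNA cells against 7.43 to 7.74 in INS1 cells.

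Of the genes outside the lists below, 4 were named after their values were seen, as those with the smallest p-values or a call under an alternative. Ptgr1, an enzyme of prostaglandin and leukotriene metabolism, was 0.47 ± 0.09 above INS1 in pcDNA cells (adjusted p = 0.136). Dtx1, a regulator of Notch signalling, read 6.75, 6.77 and 6.64 in pcDNA cells, against 7.36, 7.34 and 7.30 in INS1 cells, a difference of -0.62 ± 0.11 (adjusted p = 0.136). The homeobox gene Hoxc8 lay at 4.36, 4.41 and 4.33 in pcDNA cells, above background on all 3 arrays, and at 3.87, 3.91 and 3.90 in INS1 cells, at background on all (adjusted p = 0.181). Ppp2r3a, a regulatory subunit of protein phosphatase 2A, read 5.28, 5.11 and 5.28 in pcDNA cells, against 6.30, 6.05 and 5.45 in INS1 cells (difference -0.71, adjusted p = 0.359). None of these passed the threshold, and Ppp2r3a did so only without INS1 replicate 3 (-0.95, adjusted p = 0.00261).

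The promoters of the insulin genes (Ins1 and Ins2) and of Gcg, the gene with the largest difference, are shown for context. Each sequence runs 5′ to 3′ from 250 bases before to 50 bases after the start of the gene, from RefSeq on build GRCr8, and no file here measures binding to it. Capitals mark the letters TAAT, the core bound by homeodomain factors such as Pdx1, the letters GCCATCTG, an element known from the rat insulin I promoter, and the letters TATAAA, each on either strand. The Ins1 window is chr1:261185869-261186168 on the plus strand, the Ins2 window chr1:207273756-207274055 on the minus strand, and the Gcg window chr3:67531484-67531783 on the minus strand.
Ins1: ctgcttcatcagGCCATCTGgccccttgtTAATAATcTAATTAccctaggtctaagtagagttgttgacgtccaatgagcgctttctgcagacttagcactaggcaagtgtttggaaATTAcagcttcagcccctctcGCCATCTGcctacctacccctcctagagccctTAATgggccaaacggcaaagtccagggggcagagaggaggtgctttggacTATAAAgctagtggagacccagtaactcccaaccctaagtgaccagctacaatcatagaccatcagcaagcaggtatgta
Ins2: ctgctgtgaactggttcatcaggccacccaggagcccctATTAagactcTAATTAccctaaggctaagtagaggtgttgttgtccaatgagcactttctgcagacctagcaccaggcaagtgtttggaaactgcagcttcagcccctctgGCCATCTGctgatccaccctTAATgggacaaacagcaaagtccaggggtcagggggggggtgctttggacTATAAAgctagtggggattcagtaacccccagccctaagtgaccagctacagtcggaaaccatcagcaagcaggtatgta
Gcg: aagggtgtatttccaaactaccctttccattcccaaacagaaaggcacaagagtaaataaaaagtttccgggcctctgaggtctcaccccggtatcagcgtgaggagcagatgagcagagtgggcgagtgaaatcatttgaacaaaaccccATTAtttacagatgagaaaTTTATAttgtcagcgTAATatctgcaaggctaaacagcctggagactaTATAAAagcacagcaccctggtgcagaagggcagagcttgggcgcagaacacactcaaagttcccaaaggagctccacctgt

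TAAT occurred 6 times in the Ins1, 4 times in the Ins2 and 2 times in the Gcg window, and 60.6% of 33469 rat promoters of this length hold it. GCCATCTG occurred 2 times in Ins1, 1 time in Ins2 and not in Gcg, against 1.23% of all promoters. TATAAA, held by 14.2% of promoters, occurred 1, 1 and 2 times. The general E box CANNTG, which GCCATCTG contains and which is not in capitals, occurred 3, 2 and 4 times, against 72.1% of promoters. The Ins1 and Ins2 windows were identical at 251 of 312 aligned positions (80.4%). Matches of letters describe the window only.

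Beta-cell identity genes were detected in both lines at levels that differed little. The 13 markers measured by a probe set with 1 symbol all lay above background on all 9 untreated arrays, at 6.99 or more. No marker passed the threshold. The differences ran from -0.25 to 0.06 with a median of -0.01. Their intervals ran from -0.59 to 0.46 on the log2 scale.

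Ins1, the rodent insulin I gene, read 13.78, 13.72 and 13.69 in pcDNA cells, against 13.76, 13.77 and 13.75 in INS1 cells (difference -0.03, interval -0.16 to 0.10). It gave the highest value of all probe sets on each of the 9 arrays, where quantile normalisation leaves little room for a difference to show. Ins2, the second insulin gene, read 13.04, 12.91 and 12.99 in pcDNA cells, against 13.26, 13.17 and 13.11 in INS1 cells. These groups did not overlap, but the difference of -0.20 ± 0.08 did not pass (adjusted p = 0.971), and pCTSH#1 arrays read 13.22, 13.26 and 13.32. The transcripts of Ins1 and Ins2 are near-identical, so their probe sets may share signal. Iapp, islet amyloid polypeptide, co-secreted with insulin, read 13.60, 13.55 and 13.55 in pcDNA cells, against 13.59, 13.53 and 13.42 in INS1 cells.

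The arrays of the 2 lines overlapped for all 19 measured beta-cell transcription factors. Of all genes, 8.95% did not overlap, so a list this short may hold none. Pdx1 lay at 9.78, 9.72 and 9.70 in pcDNA cells, against 9.69, 9.73 and 9.62 in INS1 cells (difference 0.06, interval -0.11 to 0.22). Neurod1 lay at 11.43, 11.42 and 11.71 in pcDNA cells, against 11.53, 11.46 and 11.71 in INS1 cells. Nkx6-1, which represses alpha-cell genes in beta cells, lay at 8.55, 8.58 and 8.24 in pcDNA cells, against 8.79, 8.81 and 8.54 in INS1 cells, a difference of -0.25 (interval -0.59 to 0.08). Between arrays of the same replicate number it was -0.24, -0.23 and -0.30, below 0 in all 3 pairs, and with the replicate number as a block the adjusted p was 0.955. Such agreement was not particular to Nkx6-1. Ins2, Kcnj11 and Abcc8 also lay below 0 in all 3 pairs, and Iapp, Gcg and Irx1 above 0. How many of all genes keep 1 sign in the 3 pairs was not counted. In pCTSH#1 cells Nkx6-1 read 8.98, 9.08 and 9.06. The differences of Nkx2-2, Isl1 and Pax6 were 0.02, -0.03 and 0.02; a second probe set of Isl1 gave 0.25. None of the 19 reached an unadjusted p under 0.05, against 4.43% of all genes. The differences ran from -0.27 (Onecut1) to 0.21 (Pax4) around a median of -0.03, against 0.01 for all genes.

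In the median, the genes of glucose sensing and secretion also lay close together. Slc2a2, the glucose transporter GLUT2, read 12.45, 12.37 and 12.46 in pcDNA cells, against 12.54, 12.56 and 12.41 in INS1 cells. The subunits of the ATP-sensitive potassium channel differed by -0.06 (Abcc8) and by -0.09, -0.04 and 0.04 in 3 probe sets of Kcnj11. The prohormone convertase Pcsk2, the granule protein Chga and the incretin receptor Glp1r differed by -0.01, 0.00 and 0.06. Of 17 measured genes of insulin, prohormone processing and granule cargo, the arrays did not overlap for 3 lower and 0 higher in pcDNA cells. Of all genes 3.3% did not overlap in the lower direction. The median difference of this list was -0.03, and without 1 array it ran from -0.04 to 0.00. Only Ins2 reached an unadjusted p under 0.05. Of 32 measured genes of glucose sensing and surface receptors 26 lay above background on all 9 arrays. None reached an unadjusted p under 0.05, against 4.43% of all genes. Their median difference was 0.00, with a range from -0.19 (Insr) to 0.37 (P2ry1) and intervals from -0.53 to 0.78. The arrays did not overlap for 2 of them higher and 1 lower in pcDNA cells, against 8.95% of all genes in either direction. Of 31 genes of granule exocytosis, Cplx1, a complexin that controls SNARE fusion, was 0.28 above and Myrip, which links granules to actin, 0.40 below INS1 in pcDNA cells at an unadjusted p under 0.05, both with adjusted p of 0.910 or more.

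**Figure D4:**
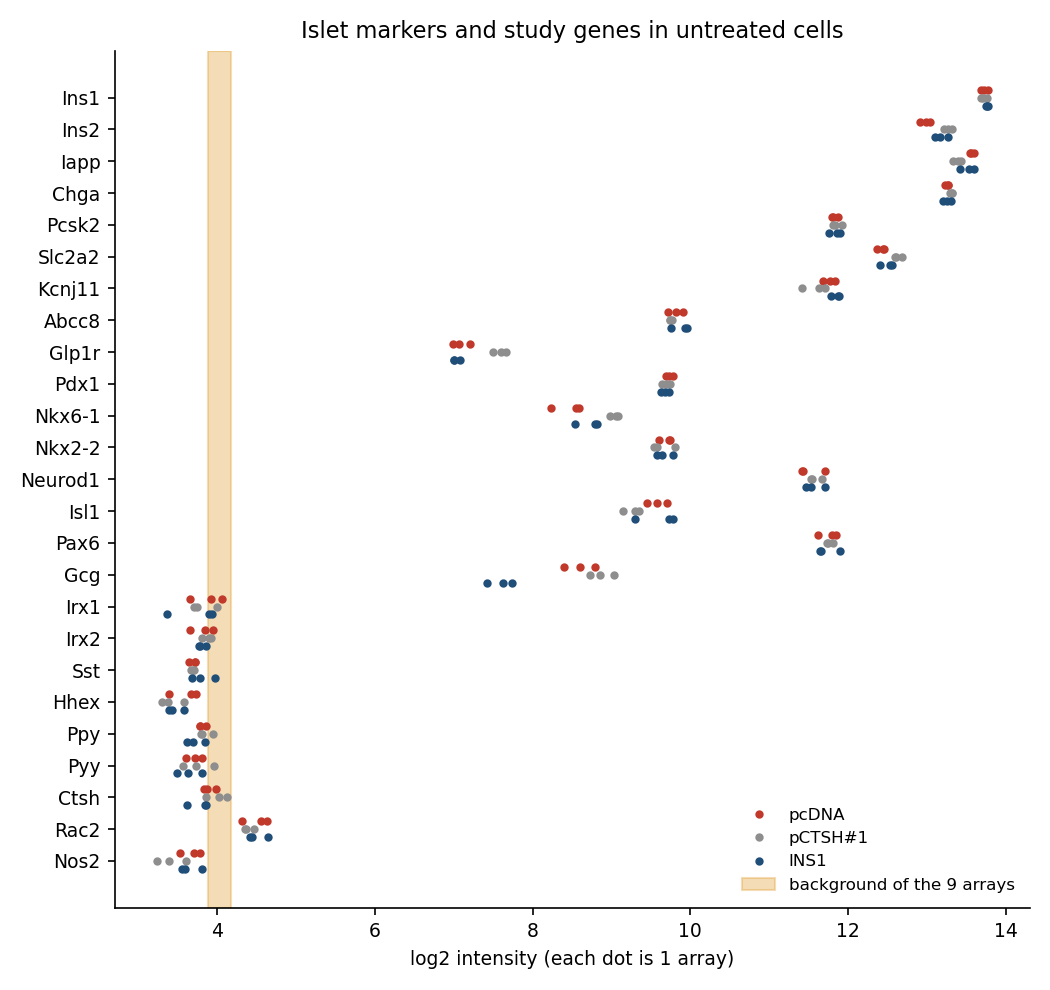
Log2 intensity of islet markers and of Ctsh, Rac2 and Nos2, with 1 dot per untreated array, pcDNA above pCTSH#1 above INS1 within each gene; the shaded band spans the background of the 9 arrays. Levels of different probe sets are not comparable. The beta-cell genes overlap or nearly touch between pcDNA and INS1 cells, Gcg stands apart, and the other islet hormones lie in or below the band.

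Markers of other islet cells were at background, apart from Gcg. Sst, Ppy and Pyy, hormones of other islet cells, Hhex, a delta-cell factor, and Irx1 and Irx2, alpha-cell factors, did not rise above background on the pcDNA arrays, and of the INS1 arrays only 1 did, for Sst. Of 25 other hormones and neuropeptides 12 lay above background on all 9 arrays and 7 on none. Of the 25, 5 (20%, the highest share of the 33 lists) reached an unadjusted p under 0.05, against 4.43% of all genes: Gcg and 4 others with adjusted p of 0.910 or more. Npy, neuropeptide Y, read 11.07, 11.15 and 11.28 in pcDNA cells, against 11.34, 11.43 and 11.49 in INS1 cells. Tff3, a trefoil peptide, read 6.17, 6.46 and 6.21 in pcDNA cells, against 6.48, 6.76 and 6.81 in INS1 cells. Gast, gastrin, was 0.28 below INS1 in pcDNA cells, and Nmu, neuromedin U, lay at background on all INS1 arrays and above it on all pcDNA arrays.

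Markers of cell types from outside the islet endocrine compartment were in part at background and in part above it. Of 19 acinar markers 11 lay above background on none of the 9 arrays and 2 on all, one of which was Bhlha15, also a factor of secretory cells in general. Of 20 leukocyte markers 11 lay above background on none and 4 on all, among them C1qa and Coro1a, while Ptprc, the pan-leukocyte gene, lay at background. Of 10 endothelial markers only Esam lay above background on all 9 arrays. Of 11 duct markers 5 did, including Krt7 and Slc4a4. Of 46 matrix and mesenchymal genes 12 lay above background on all 9 arrays and 14 on none. The mean level over the acinar list ran from 3.83 to 3.87 on pcDNA arrays and from 3.83 to 3.87 on INS1 arrays, and over the leukocyte list from 4.11 to 4.16 on pcDNA arrays and from 4.11 to 4.19 on INS1 arrays. The endothelial list averaged 4.23 to 4.33 on pcDNA arrays and 4.25 to 4.27 on INS1 arrays. The duct list averaged 5.28 to 5.39 on pcDNA arrays and 5.30 to 5.35 on INS1 arrays, and the matrix list 4.64 to 4.70 on pcDNA arrays and 4.61 to 4.65 on INS1 arrays. The ranges of the 2 lines overlapped for each of these 5 lists. Vim, vimentin, a mesenchymal filament protein, read 3.76, 4.01 and 4.14 in pcDNA cells, against 3.61, 3.55 and 3.61 in INS1 cells, at or near background in both (adjusted p = 0.969).

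The probe sets of Ctsh, Rac2 and Nos2, genes at the centre of the study, read low in both lines. Ctsh, the rat cathepsin H gene, read 3.87, 3.99 and 3.84 in pcDNA cells, against 3.62, 3.85 and 3.85 in INS1 cells, all at background, so no fold is given. Untreated pCTSH#1 cells read 4.13, 3.85 and 4.02, above background on 2 of 3 arrays, and their difference from INS1 cells was not past the threshold (adjusted p = 0.755). Whether this probe set detects the transcript of the plasmid was not tested, so these values do not show how much cathepsin H the clone makes. Rac2, a Rac GTPase that regulates NADPH oxidase, read 4.31, 4.64 and 4.56 in pcDNA cells, against 4.65, 4.42 and 4.45 in INS1 cells (interval -0.40 to 0.39). Nos2, inducible nitric oxide synthase, lay at background on all 9 untreated arrays. Of 18 Rac and NADPH oxidase genes none reached an unadjusted p under 0.05, against 4.43% of all genes. Nox1 differed by 0.00 and Rac1 by 0.03.

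The receptors and signalling genes that answer IL-1β and IFNγ were examined because pcDNA and pCTSH#1 cells were also exposed to both cytokines. Of 35 genes 30 lay above background on all 9 arrays, and none passed the threshold. The IFNγ receptor chains Ifngr1 and Ifngr2 differed by 0.02 and 0.14, and the IL-1 receptor Il1r1, near background, by -0.06 (interval -0.48 to 0.37). Nfkbib, an inhibitor of NF-κB, read 7.36, 7.45 and 7.16 in pcDNA cells, against 6.80, 7.20 and 6.50 in INS1 cells (difference 0.49 ± 0.13, adjusted p = 0.666). Of 36 interferon targets and nucleic acid sensors, Dhx58, which encodes the RNA sensor LGP2, read 7.34, 7.53 and 7.50 in pcDNA cells, against 7.30, 6.68 and 6.84 in INS1 cells, without overlap (difference 0.52 ± 0.13, adjusted p = 0.658). The median of that list was 0.04.

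MHC class I and immunoproteasome genes, whose products present antigen to T cells, had a median difference of 0.11, against 0.01 for all genes, and it was the highest of the 33 lists in these values. Without 1 array the median ran from 0.07 to 0.11, and without pcDNA replicate 3 the cholesterol (0.17) and endoplasmic reticulum stress (0.09) lists lay above its 0.08. Of the 18 measured genes 17 were above 0, against 55.1% of all genes, and none passed the threshold. Psmb9 and Psmb8, catalytic subunits of the immunoproteasome, were 0.22 and 0.18 above INS1 in pcDNA cells (adjusted p = 0.988 and 0.991). B2m, the light chain of class I molecules, and Tap1, a peptide transporter, each differed by 0.01. The count above 0 was 13 of 18 with arrays centred on their medians, where 46.0% of all genes lay above 0, and also 13 without INS1 replicate 3 or without pcDNA replicate 2.

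**Figure D5:**
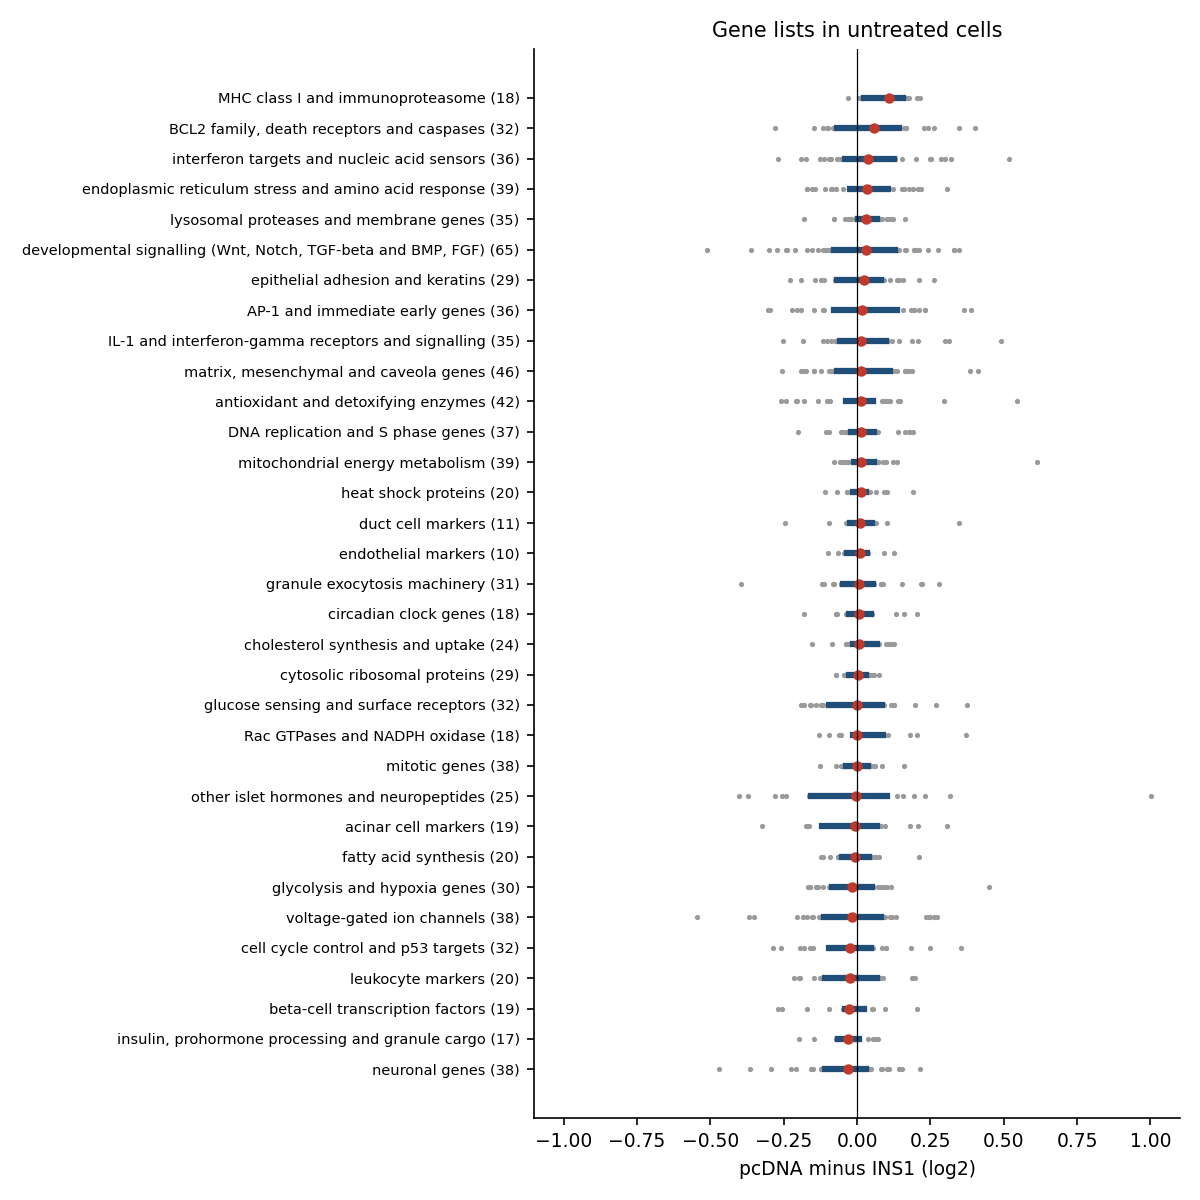
Differences in log2 intensity, pcDNA minus INS1, of the members of 33 gene lists (number of measured genes in brackets); grey dots are genes, the blue bar spans the quartiles and the red dot is the median. The medians run from -0.03 to 0.11, and Gcg at 1.00 is the dot farthest from 0.

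Over the 33 lists, 969 genes were measured and none passed the threshold. At an unadjusted p under 0.05 there were 22 higher and 22 lower (4.54%), near the 4.43% of all genes. The interval lay within 2-fold for 967 of them, the exceptions being Gcg and Ppargc1a. Ppargc1a, a coactivator of mitochondrial genes, read 5.13, 4.14 and 4.36 in pcDNA cells, against 3.81, 3.76 and 4.22 in INS1 cells. These arrays overlapped, and 1 of the pcDNA and 2 of the INS1 values lay at background. The fitted difference of 0.61 was 0.32 without pcDNA replicate 1.

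No gene of proliferation or housekeeping programmes passed the threshold, as none of the 13438 genes did. All 38 mitotic genes and all 37 genes of DNA replication lay above background on all 9 arrays. None of them reached an unadjusted p under 0.05, against 4.43% of all genes, so a count of 0 in 1 short list says little. The kinase Cdk1 read 11.27, 11.32 and 11.23 in pcDNA cells, against 11.28, 11.31 and 11.22 in INS1 cells, and Mki67, the proliferation marker, differed by -0.00 (interval -0.23 to 0.22). No gene reached that level among 32 of cell cycle control and p53 targets, 24 of cholesterol synthesis, 20 of fatty acid synthesis, 39 of endoplasmic reticulum stress, 29 ribosomal proteins, 20 heat shock proteins, 35 lysosomal genes or 18 clock genes. The cholesterol list moved with single arrays: its median of 0.01 ran from -0.11 (without INS1 replicate 3) to 0.17 (without pcDNA replicate 3). Ddit3, the stress factor CHOP, differed by -0.15, and the lysosomal proteases Ctsb and Ctsd by -0.03 and 0.08.

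Members of other lists reached an unadjusted p under 0.05, and none passed the threshold. Kcnb2, a delayed rectifier potassium channel, had the lowest difference of the 969 genes. It read 5.28, 5.17 and 5.26 in pcDNA cells, against 5.94, 5.78 and 5.62 in INS1 cells (-0.55 ± 0.12, adjusted p = 0.427). Of 38 neuronal genes 24 had a difference below 0 and 36.8% one above 0, against 55.1% of all genes above 0. With arrays centred on their medians 26.3% of the 38 lay above 0, against 46.0% of all genes. Of the 38, 4 were lower in pcDNA cells at an unadjusted p under 0.05, against 1.63% of all genes in that direction. Among the 4 was Gad2, a GABA-synthesising enzyme, at 3.87, 4.06 and 4.18 in pcDNA cells, against 4.42, 4.73 and 4.38 in INS1 cells (adjusted p = 0.753), with only 1 of the pcDNA arrays above background. Among 65 genes of developmental signalling the receptor Notch1 was 0.51 below and the ligand Bmp2 0.33 above INS1 in pcDNA cells. Nqo1, a quinone reductase, was 0.55 above INS1 in pcDNA cells, with overlapping arrays and an interval of 0.09 to 0.99 (adjusted p = 0.969). Car9, a carbonic anhydrase, was 0.45 above, the immediate early gene Jun 0.39 above, and Hrk, a pro-apoptotic BH3-only gene, 0.35 above INS1 in pcDNA cells.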

How the data were processed

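RNA of untreated pcDNA and INS1 cells, beside pCTSH#1 cells, was measured on 1 array per sample. The values are log2 probe set intensities deposited by the authors, made with RMA (background correction, quantile normalisation and summary). The submitters' processing notes name RMA, affy and limma and give no version. Used as deposited and with no filter on dim values, they spanned 2.77 to 13.99. Quantile normalisation sets all arrays to 1 distribution, so a shift of all genes could not be seen.

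limma 3.58.1 in R 4.3.3 (lmFit, eBayes) fitted 7 group means over 21 arrays; SciPy 1.17.1 gave the exact tests and matplotlib 3.10.9 in Python 3.11.15 the plots. The annotation gave 1 symbol for 19063 probe sets, several for 572, and did not list 11407; 18983 of the first matched RefSeq by gene ID. No gene was named from a probe set with several symbols. Text names follow a rule: called genes, up to 5 members of each list, and fixed islet and study genes; those outside it are stated. The members and lists were chosen with earlier results of these data known.

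The replicate numbers were checked for pairing. Deviations from group means correlated at 0.133, 0.149 and 0.130 between pcDNA and INS1 arrays of the same number. Between others they correlated at -0.164 to 0.037, so the numbers were taken to pair the arrays. The labels do not say what the paired arrays share. The main fit did not use this pairing, so its counts, standard errors, intervals and p-values are unpaired. The fits with the replicate number as a block are given as alternatives.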

Additional observations from a re-analysis of the deposited data

How the results depend on the processing

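The count of probe sets past the threshold was 3. It was 5 with trend and robust settings (3 higher, 2 lower in pcDNA cells), 1 in the brighter 50% of probe sets, 1 in the fit of the 9 untreated arrays, 0 in the fit of the 6 arrays compared and 2 to 4 when 1 array was left out. With array weights, centred arrays or cyclic loess it was 3. The count of genes was 0, and it was 1 with trend and robust settings (Gcg) and 0 to 1 when 1 array was left out, the 1 being Ppp2r3a without INS1 replicate 3; the other alternatives gave 0. At an unadjusted p under 0.05 limma gave 1312 to 1808 probe sets and 483 to 715 genes over the alternatives that tested the whole table, and 691 and 370 in the brighter 50%.

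With the replicate number as a block in the 21 arrays, 2 probe sets and 0 genes passed; the block ended the call of 1388202_PM_at and no other. With the replicate block in the 6 arrays alone the counts were 0 and 0. The 6-array fits have few residual degrees of freedom. The call of 1388202_PM_at ended without INS1 replicate 2 (adjusted p = 0.111), INS1 replicate 3 (0.0809), pcDNA replicate 1 (0.138), pcDNA replicate 2 (0.128) or pcDNA replicate 3 (0.249). The cause of these moves was not tested. Centring arrays on their medians moved every difference by -0.02. Genes at background limit what can be seen below it.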

Other observations

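Differences between neighbouring genes were also read, for 9723 genes placed by their order in RefSeq on GRCr8. The medians of the 21 chromosomes with at least 50 such genes ran from -0.01 to 0.04 for pcDNA minus INS1. In windows of 25 neighbouring genes the medians ran from -0.09 to 0.14 for pcDNA minus INS1 and from -0.16 to 0.53 for pCTSH#1 minus INS1; both comparisons share the INS1 arrays.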
